A study of Mus musculus with 6 samples.

Results

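The miR-103 and miR-107 family is a set of microRNAs (miRNAs) made from 3 mouse hairpin genes, Mir103-1, Mir103-2 and Mir107, and its reads were followed in small RNA libraries from the sensorimotor cortex. Members were all reads of 18 to 26 nt that lay on the sense strand, without mismatch, in these hairpins of GENCODE release M21. They came to 114 of the 20086 distinct hairpin reads and to 3 of 1174 hairpins. A read was given to the 5p or 3p arm by the side of the hairpin on which its midpoint fell, and to a class by the set of the 3 hairpins that held it, which gave 7 of 1423 classes and 579801 reads. The SCI group held 3 male C57BL/6J mice of postnatal day 90 whose cervical spinal cord had been exposed and cut through completely. The control group held 3 male C57BL/6J mice of the same age whose cord had been exposed and left undamaged. Both groups were taken 7 days after surgery, and the cortex, which lies far from the lesion, was collected from each animal separately, with no pooling stated. The comparison therefore asks whether miRNAs of the family differ in cortex at a distance from a cord lesion.

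MicroRNAs of this family are encoded in introns of the pantothenate kinase genes, whose enzymes begin the synthesis of coenzyme A. The 3p strand is the guide strand that is loaded into Argonaute, and its seed, near the 5' end, selects the mRNAs that are repressed. In mouse liver and fat miR-103 and miR-107 are known for lowering insulin sensitivity through caveolin-1, and in human cells for repressing Dicer, the enzyme that cuts miRNA hairpins.

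The mature strands are shown because miR-103-3p and miR-107-3p differ at a single position near the 3' end, which decides how reads can be assigned. The sequences are those of RefSeq for GRCm38.p6, 5' to 3', and capitals mark the seed, bases 2 to 8.
miR-103-3p: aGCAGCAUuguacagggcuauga
miR-107-3p: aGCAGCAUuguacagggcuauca
miR-103-1-5p: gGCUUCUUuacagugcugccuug
miR-103-2-5p: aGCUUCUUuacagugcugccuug
miR-107-5p: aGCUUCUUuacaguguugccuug
The 3p strands share the seed GCAGCAU and the 5p strands the seed GCUUCUU. Against miR-103-3p, miR-107-3p carries the substitution G22C, counted from 1 at the 5' end of miR-103-3p. A 3p read that starts at the annotated base must therefore be at least 22 nt long to be told apart, and shorter reads were kept as a class of their own, called shared 3p. The 2 miR-103 hairpins make the same 3p strand, so their 3p reads cannot be separated up to a length of 24 nt, and only their 5p strands tell them apart.

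The hairpins are shown because the bases beyond the mature strands bear on the longest reads. Capitals mark the annotated 5p and 3p strands.
Mir103-1: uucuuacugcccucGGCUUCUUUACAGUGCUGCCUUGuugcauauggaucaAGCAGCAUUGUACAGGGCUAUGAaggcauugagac
Mir103-2: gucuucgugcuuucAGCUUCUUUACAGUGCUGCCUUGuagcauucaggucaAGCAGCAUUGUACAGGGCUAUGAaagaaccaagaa
Mir107: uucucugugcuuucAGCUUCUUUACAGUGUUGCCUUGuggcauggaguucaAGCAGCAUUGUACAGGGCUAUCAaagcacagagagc
On GRCm38, Mir103-1 lies at chr11:35782396-35782481 on the plus strand in intron 5 of Pank3, and Mir103-2 lies at chr2:131288052-131288137 on the plus strand in intron 5 of Pank2. Mir107 lies at chr19:34820687-34820773 on the minus strand in intron 5 of Pank1. Each hairpin has the strand of its host gene, and 0 annotated transcripts had an exon there. No family read was found in another annotated transcript, and 0 reads lay antisense to any of the hairpins.

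The libraries held 14628518 to 23408028 reads in SCI cortex and 10585062 to 24480988 in control cortex, of which 73.0% to 79.0% entered the miRNA counts. CPM here are counts relative to the reads counted in miRNA arms (the usual CPM scale), adjusted by TMM, a factor that aligns the bulk of the miRNAs between libraries. All 4 miRNAs listed as markers of cortex neurons were abundant. Their summed level was 163761 to 177887 CPM in SCI libraries and 193710 to 212919 CPM in control libraries, without overlap. The members did not share a direction, and whether the sum follows neurons was not tested. miR-124-3p lay higher in SCI cortex, with overlap (log2 fold change 0.34), while miR-128-3p (-0.18), miR-9-5p (-0.34) and miR-132-3p (-0.44) lay lower without overlap. Of the 4, 0 passed (edgeR), 2 having an unadjusted p under 0.05. Among all classes tested, 11% lay lower in SCI cortex without overlap. Of the spinal cord and hindbrain markers, miR-196a-5p had at most 0.0860 CPM in SCI libraries and 0 in control libraries. miR-10a-5p had 10.9 to 14.3 CPM in SCI libraries and 11.2 to 25.3 CPM in control libraries, and miR-10b-5p had 5.50 to 10.6 CPM in SCI libraries and 5.11 to 9.90 CPM in control libraries. The part of these markers in the family's values was not tested. Control library 1 stood apart from the rest by chi-square per degree of freedom over miRNA counts, at 552 to 1018 against each other library, where the other pairs had 112 to 305. By the mean absolute difference in log2 CPM, its pairs had 0.352 to 0.455 and the other pairs 0.214 to 0.412, which overlapped. The summed microglial and myeloid markers of control library 1, miR-142a-3p and miR-223-3p, stood at 319 CPM, against 105 to 152 CPM in the other libraries. This came from miR-142a-3p, at 298 CPM against 81.1 to 133 CPM in the other libraries. Its miR-223-3p, at 21.1 CPM, lay within the 16.6 to 24.4 CPM of the other libraries. Of 691 classes abundant enough to be tested with edgeR's quasi-likelihood test, 0 passed an adjusted p of 0.05 (0% of those tested), while 97 had an unadjusted p under 0.05, 14% of those tested. DESeq2 called 12 classes, 0 of them of the family.

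Nearly all of the family was 3p strand, with 578831 reads against 970 of the 5p strand. Joined, the 3p reads ranked 31 of 1418 miRNA arms by mean level and the 5p reads 411. No class of the family passed the test between SCI and control cortex.

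miR-103-3p, the guide strand made by both miR-103 hairpins, was the most abundant class. It stood at 5647, 4975 and 5145 CPM in SCI libraries and at 5126, 4914 and 5066 CPM in control libraries, and the groups overlapped. Its mean was 5255 ± 349 CPM in SCI cortex and 5035 ± 109 CPM in control cortex (SD, n = 3 each), a log2 fold change of 0.06 ± 0.11 (SE; edgeR adjusted p = 0.809). In bulk tissue a difference in level can come from the number of cells of a type or from the RNA per cell, and these cannot be told apart.

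miR-107-3p, the guide strand of the third hairpin, stood at 786, 705 and 712 CPM in SCI libraries and at 746, 708 and 635 CPM in control libraries. The groups overlapped, since SCI library 2 lay below control libraries 1 and 2. The log2 fold change was 0.08 ± 0.13 (SE; edgeR adjusted p = 0.800).

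The shared 3p class, of shorter reads that fit both miRNAs, stood at 843, 675 and 693 CPM in SCI libraries and at 614, 620 and 658 CPM in control libraries. Every SCI library lay above every control library, which held for 9.12% of all classes tested. The log2 fold change of 0.22 ± 0.13 did not pass (SE; edgeR unadjusted p = 0.126, adjusted p = 0.478). With all 3p reads of the family joined in 1 class, the level was 6738 ± 380 CPM in SCI cortex and 6348 ± 186 CPM in control cortex (SD, n = 3 each), with a log2 fold change of 0.09 ± 0.10 (SE; edgeR adjusted p = 0.740).

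The reading of these levels moved with the scaling. As a plain share of all counted miRNA reads, miR-103-3p made up 0.574%, 0.515% and 0.551% in SCI libraries and 0.476%, 0.476% and 0.50% in control libraries, without overlap. The shares of miR-107-3p were 0.0799%, 0.0730% and 0.0763% in SCI libraries and 0.0693%, 0.0685% and 0.0627% in control libraries, again without overlap. Every SCI library lay above every control library in 17.4% of all classes tested on that scale. Total count scaling also moved the median log2 fold change of all classes tested to 0.09, against -0.02 with TMM, and called no family class.

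The 5p strands were rare, and their values rest on few reads. miR-107-5p, the passenger strand of Mir107, had 50, 100 and 70 reads in SCI libraries and 158, 36 and 136 reads in control libraries. Its level was 4.30, 5.66 and 4.48 CPM in SCI libraries and 9.49, 4.48 and 7.12 CPM in control libraries. The lowest control library fell inside the SCI range, so the groups overlapped, and the log2 fold change of -0.56 ± 0.28 did not pass (SE; edgeR unadjusted p = 0.0722, adjusted p = 0.406). Without control library 1 it was -0.30 (edgeR adjusted p = 0.620), and over all omissions of 1 library it ranged from -0.78 to -0.30.

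miR-103-2-5p stood at 2.58, 4.69 and 3.39 CPM in SCI libraries and at 3.54, 2.61 and 3.67 CPM in control libraries, with a log2 fold change of 0.11 ± 0.27 (SE; edgeR adjusted p = 0.874). miR-103-1-5p stood at 0.946, 0.905 and 0.576 CPM in SCI libraries and at 1.26, 0.871 and 0.943 CPM in control libraries, with a log2 fold change of -0.37 ± 0.34 (SE; edgeR adjusted p = 0.643). Both pairs of groups overlapped. The 22 reads that fit the 5p strand of both miR-103 hairpins were too few to be tested.

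**Figure D1:**
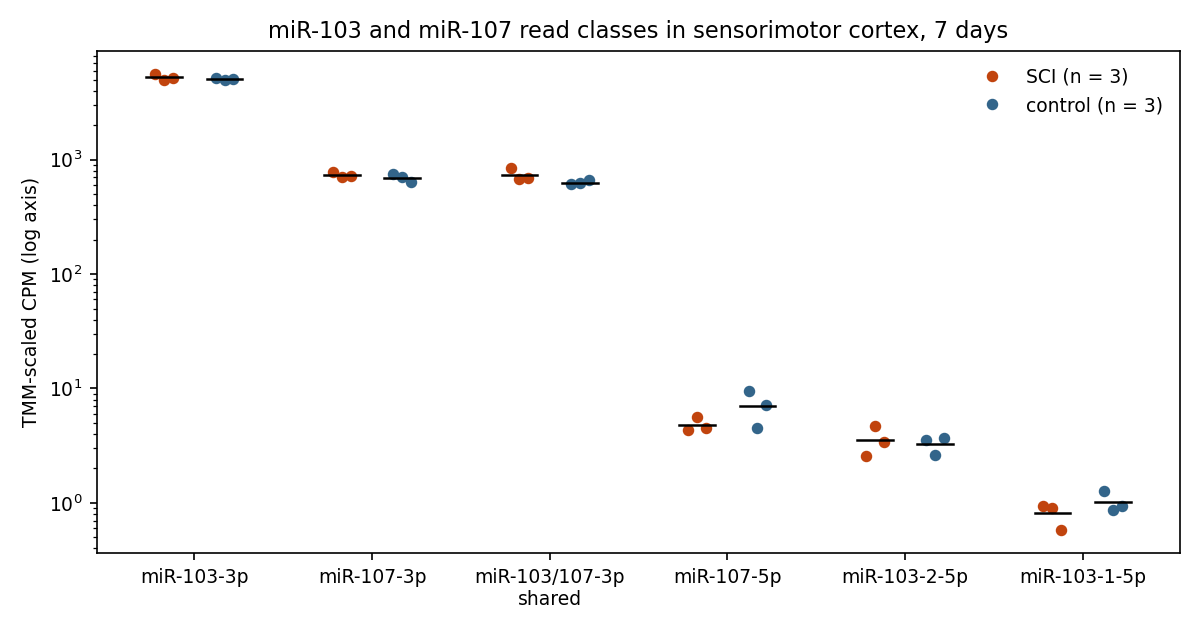
Level of the 6 family classes tested, in TMM-scaled CPM on a log axis, with 1 point per library, SCI left of control, and a bar at the mean of 3 libraries. The 3p classes lie between 614 and 5647 CPM and the 5p classes between 0.576 and 9.49 CPM, and among them the groups are apart only for the shared 3p class.

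The balance of the paralogues was measured as the share of miR-107 among the 3p reads that reach the discriminating base. It was 12.2%, 12.4% and 12.2% in SCI libraries and 12.7%, 12.6% and 11.1% in control libraries, with a 95% Wilson interval of 12.3% to 12.9% for the shallowest library, control library 2. Such intervals cover counting error only. The lowest and the highest share were both in control libraries. The means of 12.3% ± 0.130 in SCI and 12.1% ± 0.871 in control cortex (SD, n = 3 each) gave p = 1 in a two-sided exact permutation test, where the smallest p possible is 0.1.

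The balance of the miR-103 hairpins could be read only from the 5p strand. Mir103-1 gave 11 of 41, 16 of 99 and 9 of 62 distinguishable 5p reads in SCI libraries, and 21 of 80, 7 of 28 and 18 of 88 in control libraries. The shares were 26.8%, 16.2% and 14.5% in SCI libraries and 26.2%, 25% and 20.5% in control libraries, so Mir103-2 gave most of these reads in all 6 libraries. The Wilson interval of SCI library 1 ran from 15.7% to 41.9%, and the groups overlapped. A two-sided exact permutation test gave p = 0.4, where the smallest p possible is 0.1, so it could not have passed at any depth.

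The ratio of 3p to 5p reads within a library needs no scaling and was compared with limma on a log2 scale with a pseudocount of 0.5. For the joined family it was 9.79, 9.09 and 9.57 in SCI libraries and 8.82, 9.58 and 9.03 in control libraries, which overlapped. The difference of 0.34 ± 0.28 (SE; limma adjusted p = 0.634) did not pass, and neither did any of the other hairpins (0% of the 278 ratios tested). For Mir107 alone the log2 ratio was 7.50, 6.95 and 7.30 in SCI libraries and 6.29, 7.28 and 6.47 in control libraries, a difference of 0.57 ± 0.30 (SE; limma unadjusted p = 0.101, adjusted p = 0.502). Without control library 1 the difference was 0.18 for the joined family and 0.37 for Mir107, and with 1 library left out in turn they ranged from 0.18 to 0.56 and from 0.37 to 0.87. For the miR-103 hairpins together the difference was 0.03 ± 0.25 (SE; limma adjusted p = 0.947).

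Starts 1 base inside the annotated 5' end had lower shares in all SCI libraries than in all control libraries, although the family's shifted starts did not pass the threshold over all arms. A read that starts 1 base inside the annotated end has its seed moved by 1 base. The reads concerned are shown with the shifted seed, bases 2 to 8 of the read, in capitals, and with T for U as in the deposited tables.
miR-103-3p, start 1 base inside, 22 nt: gCAGCATTgtacagggctatga
miR-103-3p, start 1 base inside, 21 nt: gCAGCATTgtacagggctatg
miR-107-3p, start 1 base inside, 22 nt: gCAGCATTgtacagggctatca
miR-103-3p, start 2 bases inside, 21 nt: cAGCATTGtacagggctatga

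Starts 1 base inside made up 0.692%, 0.722% and 0.630% of miR-103-3p reads in SCI libraries and 1.62%, 1.34% and 1.11% in control libraries. All SCI libraries lay below all control libraries, and control library 1 was the highest. For miR-107-3p the same start made up 0.591%, 0.602% and 0.584% in SCI libraries and 1.26%, 0.949% and 0.824% in control libraries. For the shared 3p reads it made up 0.582%, 0.654% and 0.647% in SCI libraries and 0.930%, 0.983% and 0.924% in control libraries. The 3 classes hold different reads of the same libraries, and in each of them the groups did not overlap. The share of all arms separated in this way was not computed for this start alone. For all shifted starts together it was 30.7%.

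Starts 2 bases inside showed no such separation. They made up 0.777%, 0.786% and 0.846% of miR-103-3p reads in SCI libraries and 0.867%, 0.691% and 0.809% in control libraries, which overlapped. They were rarer in miR-107-3p, at 0.186%, 0.128% and 0.171% in SCI libraries and 0.145%, 0.211% and 0.107% in control libraries. In every library miR-103-3p thus had a higher share of this start than miR-107-3p, although the bases around the start are the same in both mature strands. Starts 3 bases inside were rarer and again lower in all SCI libraries, at 0.0655% to 0.0745% of all 3p reads against 0.0917% to 0.104% in control libraries. Starts 4 bases inside made up 0.0929% to 0.109% in SCI libraries and 0.120% to 0.148% in control libraries, but overlapped for miR-107-3p. Starts 3 and 4 bases inside rest on 489 and 673 reads over all libraries. The share of all arms separated in this way was not computed for either start.

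**Figure D2:**
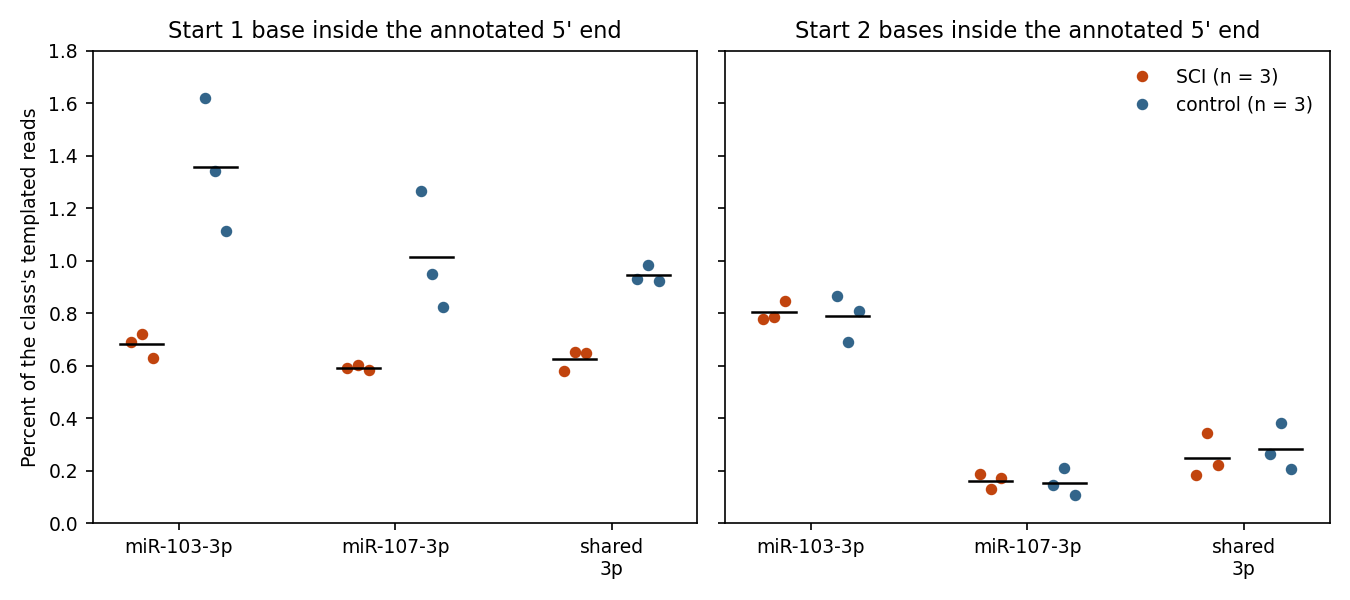
Share of reads starting 1 base (left) and 2 bases (right) inside the annotated 5' end, in percent of the templated reads of each class, with 1 point per library, SCI left of control, and a bar at the mean of 3 libraries. At 1 base inside, miR-103-3p lies at 0.630% to 0.722% in SCI libraries and at 1.11% to 1.62% in control libraries, and at 2 bases inside the groups overlap.

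All reads off the most abundant start were tested together, as log2 odds, with limma over 443 miRNA arms. The difference, SCI minus control, was -0.47 ± 0.12 for miR-103-3p (SE; limma unadjusted p = 0.00837, adjusted p = 0.0713) and -0.56 ± 0.18 for miR-107-3p (SE; limma unadjusted p = 0.0231, adjusted p = 0.126). An unadjusted p under 0.05 with a lower value in SCI cortex was found for 23.5% of the arms. As 1 arm, the 3p reads gave -0.48 ± 0.12 (SE; limma adjusted p = 0.0679). With only arms of at least 1000 mean counts in the fit, miR-103-3p passed (limma adjusted p = 0.0242), and so did the joined 3p reads (limma adjusted p = 0.0227), as did 61 of the 272 arms in that fit (22.4%). Without control library 3, miR-107-3p passed (limma adjusted p = 0.0293), where 35 of 443 arms did (7.9%). Without control library 1, the highest, the difference was -0.36 for miR-103-3p (limma adjusted p = 0.103) and -0.42 for miR-107-3p (limma adjusted p = 0.209), and 0 arms passed.

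The direction was shared by much of the miRNA population. The difference was below 0 in 312 of the 443 arms, its median was -0.14, and 34 arms passed (7.67%), 33 of them lower in SCI cortex. Every SCI library lay below every control library in 30.7% of the arms, which is the level to hold against the family's. Of the 440 arms outside the family, 85 had a lower value than the joined 3p reads. The count of arms that passed was 0 or 1 whenever 1 library other than control library 3 was left out, and 35 without that library.

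**Figure D3:**
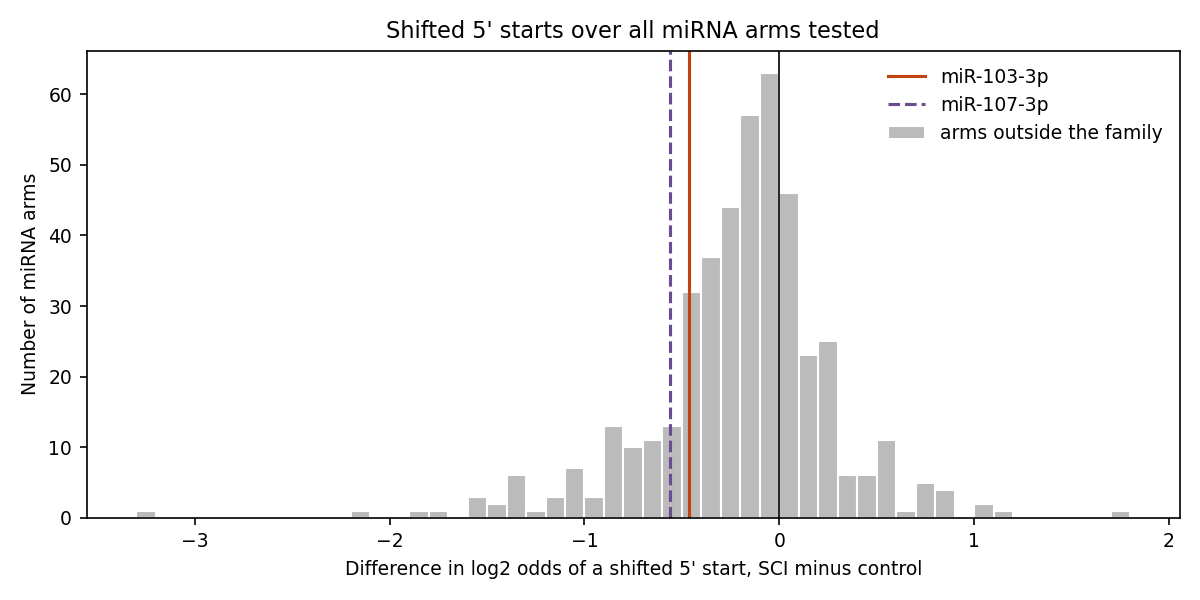
Differences in the log2 odds of a shifted 5' start, SCI minus control, as a histogram over 440 miRNA arms outside the family, in number of arms per bin of 0.1, with lines at miR-103-3p and miR-107-3p. The lines at -0.47 and -0.56 lie left of the median of -0.14 and within the left flank of the distribution.

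As a read of its own, gCAGCATTgtacagggctatga had 390, 518 and 421 counts in SCI libraries and 1203, 437 and 879 in control libraries. Its level was 26.4, 21.9 and 21.7 CPM of all sequences tested in SCI libraries and 57.1, 41.2 and 39.4 CPM in control libraries, without overlap. Every SCI library lay below every control library for 7.35% of all sequences tested. The log2 fold change of -0.98 ± 0.24 had an unadjusted p of 0.00254 but did not pass (SE; edgeR adjusted p = 0.131). Its 21 nt form, gCAGCATTgtacagggctatg, had 3.65, 4.53 and 3.76 CPM in SCI libraries and 7.98, 8.30 and 8.20 CPM in control libraries, a log2 fold change of -1.03 ± 0.29 (SE; edgeR adjusted p = 0.154). The miR-107-3p counterpart gave -0.53 ± 0.35 (SE; edgeR adjusted p = 0.593), and the read starting 2 bases inside gave 0.03 ± 0.25 (SE; edgeR adjusted p = 0.984). No sequence passed among the 106122 tested (0%), and an unadjusted p under 0.05 was found for 14.3% of them. On simulated data this test called no isolated changed sequence, so the absence of calls among single sequences says little. Of the 132 family sequences tested, tailed reads included, 3 were higher and 4 lower at that unadjusted level, which 10.7% of all sequences tested reached as higher and 3.51% as lower.

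Starts of the 5p strand differed between hairpins. miR-107-5p began 1 base before the annotated base in 122 of 550 reads, at 32%, 20% and 20% in SCI libraries and 25.3%, 19.4% and 18.4% in control libraries. miR-103-2-5p did so in 0 of 316 reads, which allows a share of up to 0.949%, and miR-103-1-5p in 0 of 82, which allows up to 3.66%. The base in front of the annotated 5p end is the same in all of the hairpins.

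The 3' end of the 3p strand lay mostly at the annotated base. Of all templated 3p reads at the main start, 70.6%, 69.6% and 71.3% ended at 23 nt in SCI libraries and 71.0%, 69.9% and 69.7% in control libraries. Reads with added bases are not in this or the following shares of ends. Ends at 22 nt made up 15.9%, 18.1% and 16.5% in SCI libraries and 18.1%, 18.8% and 18.5% in control libraries, where each SCI value was below each control value, if narrowly for SCI library 2. Ends at 22 nt with added U are left out of these values. For miR-103-3p they were 30.5% to 37.3% of such ends in SCI libraries and 26% to 33.5% in control libraries. Their part in the separation was not tested. Ends at 21 nt made up 9.07%, 8.10% and 8.25% in SCI libraries and 7.85%, 7.45% and 7.91% in control libraries, again without overlap. Among all arms, reads 1 base short of the most abundant end had SCI below without overlap in 5.87%, and reads 2 bases short had SCI above without overlap in 13.3%. The mean length was 22.6 nt in both groups, with a difference of -0.00146 ± 0.0293 nt (SE; limma adjusted p = 0.994), and 0 of 443 arms passed that test (0%).

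The paralogues ended at different lengths. miR-107-3p ended at 22 nt in 37.4%, 36.8% and 36.3% of its templated reads in SCI libraries and in 44.0%, 35.3% and 37.6% in control libraries. miR-103-3p ended there in 15.3%, 17.9% and 16% in SCI libraries and in 16.5%, 18.8% and 18.5% in control libraries. In each of the 6 libraries the share was thus higher for miR-107-3p, whose last base at that length is a C in place of a G. The main reads are shown with the bases from position 22 in capitals.
miR-103-3p, 22 nt: agcagcattgtacagggctatG
miR-103-3p, 23 nt: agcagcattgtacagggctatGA
miR-107-3p, 22 nt: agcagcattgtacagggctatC
miR-107-3p, 23 nt: agcagcattgtacagggctatCA

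Extended reads of miR-103-3p had a higher share in each SCI library than in any control library. Reads of 24 nt made up 1.74%, 1.57% and 1.44% in SCI libraries and 1.23%, 1.25% and 1.29% in control libraries. Reads of 25 nt made up 0.425%, 0.262% and 0.276% in SCI libraries and 0.181%, 0.161% and 0.157% in control libraries. Reads 1 base and 2 bases past the most abundant end had SCI above without overlap in 6.55% and 6.77% of all arms. These shares were not tested by length. For miR-107-3p the 24 nt reads made up 1.43%, 1.69% and 1.62% in SCI libraries and 1.27%, 1.84% and 1.88% in control libraries, which overlapped.

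The 25 nt reads are the shortest that could separate the miR-103 hairpins on the 3p side, and their last 4 bases are in capitals.
miR-103-3p, 25 nt, as templated by Mir103-2: agcagcattgtacagggctatGAAA
miR-103-3p, 25 nt, as templated by Mir103-1: agcagcattgtacagggctatGAAG
The form with the Mir103-2 end had 258, 208 and 205 counts in SCI libraries and 136, 55 and 140 in control libraries. In CPM of all sequences tested it stood at 17.4, 8.81 and 10.6 in SCI libraries and at 6.46, 5.19 and 6.27 in control libraries, and SCI library 1 was the highest. The groups did not overlap, with all SCI libraries above, as for 10.8% of all sequences tested. The log2 fold change was 1.03 ± 0.33 (SE; edgeR unadjusted p = 0.0113, adjusted p = 0.196). The form with the Mir103-1 end had 76 reads in all and a log2 fold change of 0.58 ± 0.49 (SE; edgeR adjusted p = 0.702). An A added to the 24 nt read gives the same letters as the Mir103-2 template, so cutting and tailing cannot be told apart for that read.

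**Figure D4:**
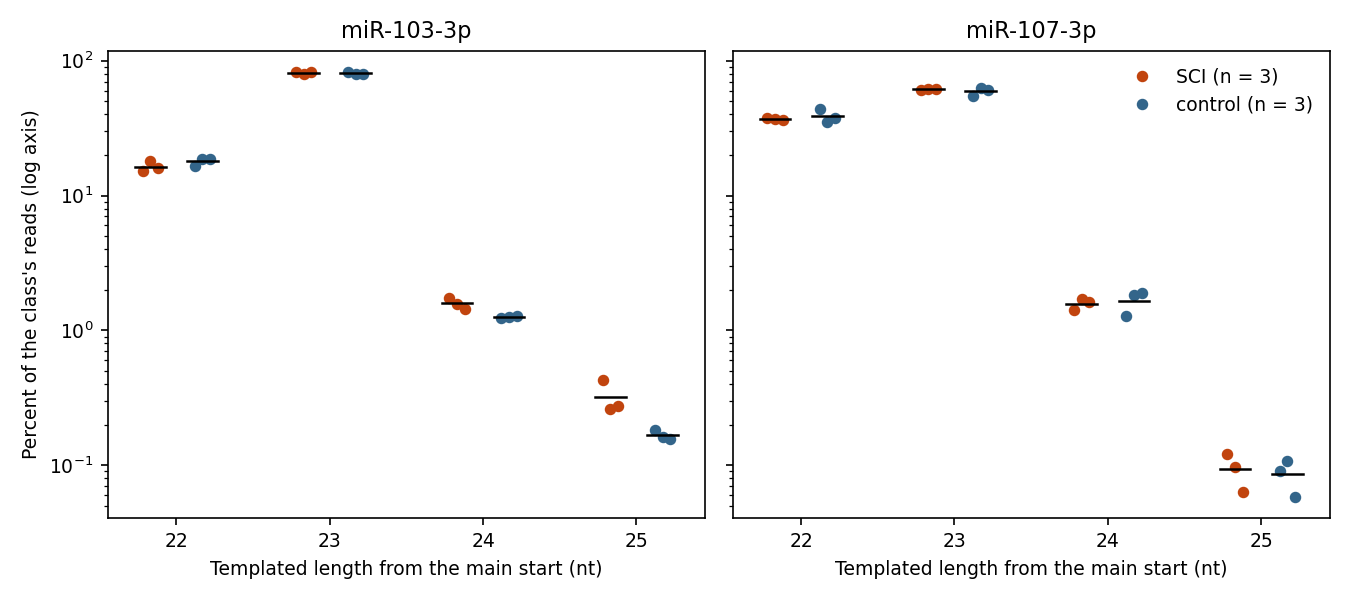
Length of templated reads at the main start of miR-103-3p (left) and miR-107-3p (right), in percent of those reads on a log axis. Each panel has 1 point per library, SCI left of control, and a bar at the mean of 3 libraries. miR-107-3p has 35.3% to 44.0% of its reads at 22 nt against 15.3% to 18.8% for miR-103-3p, and the groups are apart only for miR-103-3p at 24 nt and 25 nt.

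Tails are bases at the 3' end that the hairpin does not encode, added by terminal nucleotidyltransferases. Reads with 1 to 3 added uridines came to 13.9, 11.8 and 13.5 per 100 templated miR-103-3p reads in SCI libraries and to 12.5, 10.4 and 10.3 in control libraries. The groups overlapped through SCI library 2 and control library 1, and the log2 odds differed by 0.24 ± 0.15 (SE; limma adjusted p = 0.715). For miR-107-3p the values were 13.2, 11.8 and 12.6 in SCI libraries and 13.7, 11.2 and 11.2 in control libraries, a difference of 0.06 ± 0.14 (SE; limma adjusted p = 0.952). No arm passed for added U or for added A (0% of 443 each).

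Where the uridine was added depended on the templated end. Of the miR-103-3p reads whose templated part ended at 22 nt, 37.3%, 30.5% and 35.6% carried added U in SCI libraries and 33.5%, 26% and 27.2% in control libraries. Of those ending at 23 nt, 5.28%, 4.52% and 5.19% did so in SCI libraries and 4.75%, 4.37% and 3.95% in control libraries. At 24 nt the miR-103-3p share was 13.6%, 10.8% and 12.3% in SCI libraries and 12.7%, 11.6% and 9.32% in control libraries. It was thus above that at 23 nt in every library. For miR-107-3p the share at 22 nt was 21.8%, 19.7% and 21.3% in SCI libraries and 20.1%, 18.7% and 18.9% in control libraries, below that of miR-103-3p in every library. At 23 nt it was 3.91%, 3.88% and 3.89% in SCI libraries and 4.29%, 4.31% and 3.48% in control libraries. The most frequent tailed reads are shown with the added base in capitals.
miR-103-3p, 22 nt and U: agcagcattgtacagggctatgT
miR-103-3p, 23 nt and U: agcagcattgtacagggctatgaT
miR-107-3p, 22 nt and U: agcagcattgtacagggctatcT
The first of them had 31559 reads in all and a log2 fold change of 0.30 ± 0.21 (SE; edgeR adjusted p = 0.615). The second had 15694 reads and a log2 fold change of 0.24 ± 0.20 (SE; edgeR adjusted p = 0.706). The third had 5843 reads and a log2 fold change of 0.11 ± 0.24 (SE; edgeR adjusted p = 0.914).

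**Figure D5:**
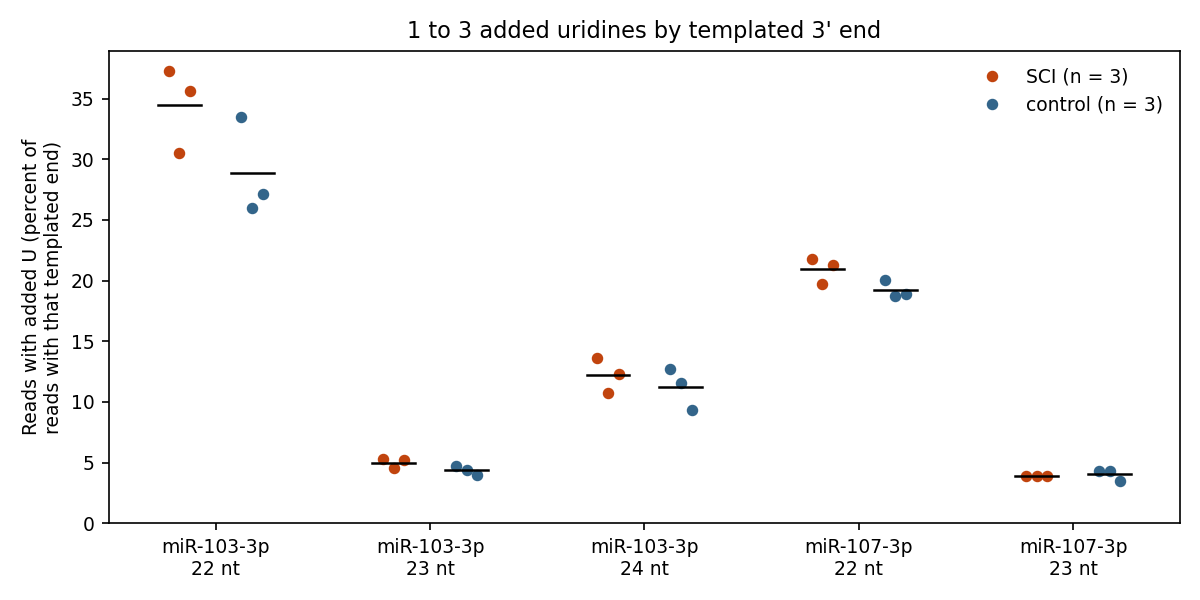
Share of reads with 1 to 3 added uridines among all reads, tailed or not, whose templated part ends at the given length, in percent, with 1 point per library, SCI left of control, and a bar at the mean of 3 libraries. For miR-103-3p the share is 26% to 37.3% at 22 nt, 3.95% to 5.28% at 23 nt and 9.32% to 13.6% at 24 nt. For miR-107-3p it is 18.7% to 21.8% at 22 nt.

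Added A was largely hidden for miR-103-3p and miR-107-3p, since the next templated bases after 22 nt are A. Of miR-103-3p, 61 reads carried an added A that the hairpins do not encode, with log2 odds higher by 1.5 ± 0.51 in SCI cortex (SE; limma unadjusted p = 0.0259, adjusted p = 0.414). Every SCI library lay above every control library there, as in 19.2% of the arms tested. Of the 61 reads, 57 were at the annotated start with a templated part of 25 nt. Among all reads with that templated end, 7.12%, 4.64% and 3.96% carried added A in SCI libraries. In control libraries 5.06%, 1.59% and 4.52% did so, and the groups overlapped. Among the 5p strands the read miR-103-2-5p with 1 added A, at 0.744, 1.40 and 0.516 CPM in SCI libraries and 0.997, 1.51 and 0.985 CPM in control libraries, gave a log2 fold change of -0.36 ± 0.50 (SE; edgeR adjusted p = 0.846).

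Whether miR-107-3p reads could be misread miR-103-3p molecules was checked on all single-base changes of the 23 nt miR-103-3p read. G22C, which is miR-107-3p, had 37322 reads, and A23T, which is the 22 nt form with an added U, had 31559. G22A with 791 reads, A23G with 385 and A23C with 235 have the letters of shorter reads with a tail. The other 64 changes had at most 388 reads each (A12C) and a median of 34.5, or 0.00954% of the miR-103-3p read. The miR-107-3p count was thus far above each of these 64.

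Other miRNAs were described by list. The first list held 7 miRNAs with AGCAGC near the 5' end, of the miR-15, miR-16, miR-195, miR-322, miR-497 and miR-503 group. Their seed overlaps that of the family by 1 base of offset, save that the seed of miR-503-5p ends in G in place of A. Of these 7, 0 passed in edgeR, 6 lay higher and 1 lower in SCI cortex. The median log2 fold change was 0.03 against -0.02 over all classes tested. The closest of them to the threshold was miR-322-5p at 243, 281 and 278 CPM in SCI libraries and 326, 275 and 330 CPM in control libraries (log2 fold change -0.22 ± 0.14, SE; edgeR adjusted p = 0.525). It was followed by miR-15b-5p at 0.21 ± 0.16 (SE; edgeR adjusted p = 0.577) and miR-195a-5p at 0.10 ± 0.18 (SE; edgeR adjusted p = 0.809).

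Of 12 miRNAs known from insulin and lipid metabolism, 0 passed in edgeR, 2 had an unadjusted p under 0.05 (against 14% of all classes), 3 lay higher and 9 lower (against 333 and 358 of all classes), and the median log2 fold change was -0.21. miR-143-3p, a miRNA of smooth muscle and pericytes, had 3000, 3241 and 2974 CPM in SCI libraries and 4007, 4716 and 4378 CPM in control libraries, with no overlap, as 11% of all classes tested had with SCI below. Its log2 fold change was -0.51 ± 0.11 (SE; edgeR unadjusted p = 0.00149, adjusted p = 0.156). miR-33-5p, which is encoded in a sterol regulator gene, gave -0.64 ± 0.24 (SE; edgeR adjusted p = 0.280), and miR-29a-3p gave -0.31 ± 0.15 (SE; edgeR adjusted p = 0.388). Of 10 miRNAs linked to p53, 0 passed, 6 lay higher and 4 lower, and the median was 0.02. miR-143-3p, which is on this list too, was followed by miR-194-5p at 0.30 ± 0.14 (SE; edgeR adjusted p = 0.380) and miR-145a-5p at -0.28 ± 0.13 (SE; edgeR adjusted p = 0.380).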

How the data were processed

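Small RNA was sequenced as single-end reads from the cortex of 3 SCI and 3 control mice, with libraries made with HD adapters, per the labels' protocols. The authors deposited for each library the raw count of every distinct read sequence, per the file headers. The submitters' processing notes name the build GRCm38, while trimmer and aligner are not given in the sources used here. Reads were matched here without mismatch to GENCODE M21 hairpins. Arms sharing at least 50% of the smaller arm's reads were merged, and reads still shared between arms, at most 0.0893% of a library, were left out. Where no hairpin matched, up to 3 bases were removed to find tails.

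Arm counts (filterByExpr, minimum count 10) and sequences with at least 10 counts in total were tested with edgeR 4.0.16 (quasi-likelihood, TMM). Arm ratios (at least 10 mean counts on both arms), starts, ends and tails (arms of at least 100 mean counts) were tested with limma 3.58.1, in R 4.3.3, without covariates. Ratios, starts and tails had a pseudocount of 0.5, and the mean length of the ends had none. P-values were adjusted by Benjamini-Hochberg over all features, and 0.05 was the threshold. The SE of an edgeR fold change is its size over the square root of F. P-values measure the spread between these samples, and no sample was dropped. The fits were tested on simulated data, where the test of single sequences recovered fold sizes but called no changed sequence, so its lack of calls says little. DESeq2 1.42.0 was an alternative.

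Named were all family classes, the 4 most abundant reads per class, those of unadjusted p under 0.05 with a mean of at least 100 counts, and 3 miRNAs per list. The reads starting 2 bases inside or ending in GAAG, and the tailed reads, were added after their values were seen. Members and lists were chosen with earlier results of these data known. The reads carry no molecular identifiers.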

Additional observations from a re-analysis of the deposited data

How the results depend on the processing

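Under every alternative run, 0 family classes passed in the test of levels. The number of miRNA classes passing, 0, became 12 with DESeq2 and 30 with no filter on low counts, and 0 to 7 when 1 library was left out (2 without SCI library 1 and 7 without SCI library 2). The number of arms with a called start shift, 34, became 61 with arms of at least 1000 mean counts and 0 to 35 when 1 library was left out. The cause of these moves was not tested. The number of called sequences, 0, ranged from 0 to 4564 with 1 library left out, the highest without SCI library 1. For added A and for added U it ranged from 0 to 1, the 1 without control library 1.

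Same-numbered SCI and control libraries had deviations that correlated at 0.22, -0.06 and -0.09. SCI library 1 correlated best with its own number, and SCI libraries 2 and 3 did not. So few libraries cannot decide whether the numbers pair the samples. With a replicate block the miR-103-3p log2 fold change was 0.06 and its start shift -0.47 (limma adjusted p = 0.128), 29 arms had a called start shift, 4543 sequences were called, and no other call changed among the results run with that block.

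Some signs turned with 1 library left out, and none of these values was called. The ranges of log2 differences were -0.16 to 0.29 for the level of miR-103-2-5p, -0.14 to 0.26 for the miR-103 arm ratio and -1.28 to 0.14 for added A on miR-107-3p. The mean length moved by -0.00732 to 0.00752 nt for the joined 3p reads and by -0.00664 to 0.0401 nt for miR-107-3p. The miR-107 share moved by -0.383 to 0.399 percentage points. Log2 fold changes of reads ranged from -0.165 to 0.0665, -0.0433 to 0.205, -0.0278 to 0.131, -0.143 to 0.0706 and -0.191 to 0.0326 for 3p reads of 18 and 19 nt, the 23 nt miR-103-3p read and the 22 and 24 nt miR-107-3p reads. They ranged from -0.90 to 0.11, -0.18 to 0.19 and -0.26 to 0.35 for miR-103-2-5p reads of 22, 23 and 24 nt. Scaled to the arm table, the 18 nt 3p read stood at 0.00556 and the 24 nt miR-107-3p read at 0.0185.

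Depth limits the 5p strands most, with 65 to 239 reads per library, and intervals cover counting error only.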

Other observations

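The miRNAs whose level followed that of the joined family 3p reads most closely were found among 235 arms of at least 100 mean CPM, by Pearson's r of log2 CPM over the 6 libraries. They are given as a description, since the 6 points share the TMM scaling and include both groups. miR-592-5p came first (r = 0.960), with 460, 366 and 405 CPM in SCI libraries and 401, 333 and 360 CPM in control libraries. miR-344-3p followed (r = 0.919), with 441, 348 and 389 CPM in SCI libraries and 351, 259 and 285 CPM in control libraries. The next were miR-376c-3p (r = 0.893), miR-31-5p (r = 0.874) and miR-7a-5p (r = 0.834). In each of miR-592-5p and miR-344-3p the highest library was SCI library 1, which was also the highest for the joined 3p reads.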
